A study of Mus musculus with 24 samples.

Results

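The 34 genes described here encode the proteins that bring glucose into the cell, split it into pyruvate, convert pyruvate into lactate or feed it into the mitochondria, and carry lactate and pyruvate across membranes. They were chosen by their symbols, which were matched to gene identifiers in the GENCODE vM21 annotation, and the rule used no expression value. The set, like the lists of other genes below, was however proposed with earlier results of these data known. Counts of its members are therefore a description of these data. All 34 were found among the 37315 genes of the normalized count table, and all passed the filter on low values (a mean above 10 in the libraries compared) in every comparison. The series holds 24 RNA-seq libraries of 12 populations, 2 of each, and follows neural precursor cells (NPCs) as they were reprogrammed into induced pluripotent stem cells (iPSCs) with or without early interferon γ (IFNγ).

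Every population came from PaX, a female hybrid ESC line of the strains 129S1/SvImJ and CAST/EiJ. The line carries a doxycycline-inducible cassette of cMyc, Klf4, Oct4 and Sox2, an X-GFP reporter placed in Hprt of the X chromosome of M. musculus origin (X mus), a truncated Tsix that directs inactivation to X mus, and an RFP reporter driven by the Nanog promoter. The 2 end points were ESCs grown in serum and LIF, and NPCs differentiated from them and grown in RHBA medium with EGF, bFGF and ROCK inhibitor. Control cells were reprogrammed with doxycycline, LIF and ascorbic acid on irradiated male mouse embryonic fibroblast feeders, and IFNγ cells received in addition 10 ng/ml IFNγ from day 0 to 5. Cells of both arms were collected at day 2 as cells without the feeder dye CFSE, at day 5 as SSEA1+ cells, and at day 7 as SSEA1+ cells sorted by reporter level into X-GFP-negative, X-GFP-medium or X-GFP-high. The NPC medium differed from the medium of ESCs and reprogramming cells, which contained added pyruvate, so that cell state and medium cannot be told apart in a comparison with NPCs. ESC culture had no doxycycline, ascorbic acid or feeders, so cell state and culture cannot be told apart between ESCs and reprogramming cells either. The labels do not say whether the replicates came from separate cultures, and the p-values therefore measure only the spread between these libraries.

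Glycolysis breaks glucose down to pyruvate and yields ATP without oxygen. Lactate dehydrogenase turns pyruvate into lactate, which leaves the cell through monocarboxylate transporters, whereas the mitochondrial pyruvate carrier and the pyruvate dehydrogenase complex pass pyruvate on to the citric acid cycle, and pyruvate dehydrogenase kinases switch that complex off. Pluripotent cells are known for a high glycolytic rate, and the genes of the pathway are classical targets of MYC and of the hypoxia-inducible factors.

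The libraries held 24746109 to 37056508 reads on genes. The 2 NPC libraries differed more from each other in these genes than any other pair: 12 of 34 members were over 1.5-fold apart, against 0 to 3 members in the other 11 populations, and 13.4% of all genes were that far apart between the NPC libraries. Reads of Y-linked genes, which only the male feeders can supply, summed to between 125 and 253 normalized counts in the 4 day 2 libraries and to at most 12.5 elsewhere. Single 50-base stretches of some members cannot be told from those of other genes with the same sequence. Of all 50-base windows of the transcripts, 53.9% of Pgk1, 36.2% of Pgam1, 26.3% of Mpc1, 26.0% of Eno1, 25.8% of Pkm, 25.1% of Gapdh and 21.0% of Ldhb also occurred in transcripts of another gene, and the copies Eno1b, Pgam1-ps2 and Mpc1-ps had counts of their own. In such bulk samples, fewer cells of a type and less RNA per cell cannot be told apart.

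Together, the members held a larger share of all normalized counts late in reprogramming than at its start. They accounted for 0.657% and 0.406% in the 2 NPC libraries, 0.445% in both day 2 control libraries, 0.848% and 0.776% in the day 5 control libraries, 1.63% in both day 7 X-GFP-negative control libraries and 1.74% and 1.79% in the X-GFP-high control libraries. ESCs, at 1.17% and 1.15%, lay between the day 5 and the day 7 cells, and no library of these groups overlapped with the next group in that order other than NPCs and day 2 cells. Of the 34 members, 28 had their highest mean in a day 7 population, 12 of them in X-GFP-negative control cells, and 24 had their lowest mean in NPCs or day 2 cells. These counts were not taken over all genes, so they do not set the members apart from other genes. The exceptions at the top were Ldhb, Pdk3, Pdhb, Dlat and Slc16a1, which were highest in ESCs, and Mpc2, which was highest in day 2 control cells. The range was widest for Pdk4 (169-fold between the highest and the lowest population mean), Slc16a3 (117-fold), Aldoc (87.6-fold) and Slc2a3 (60.9-fold), and narrowest for Pfkfb2 (1.58-fold).

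**Figure D1:**
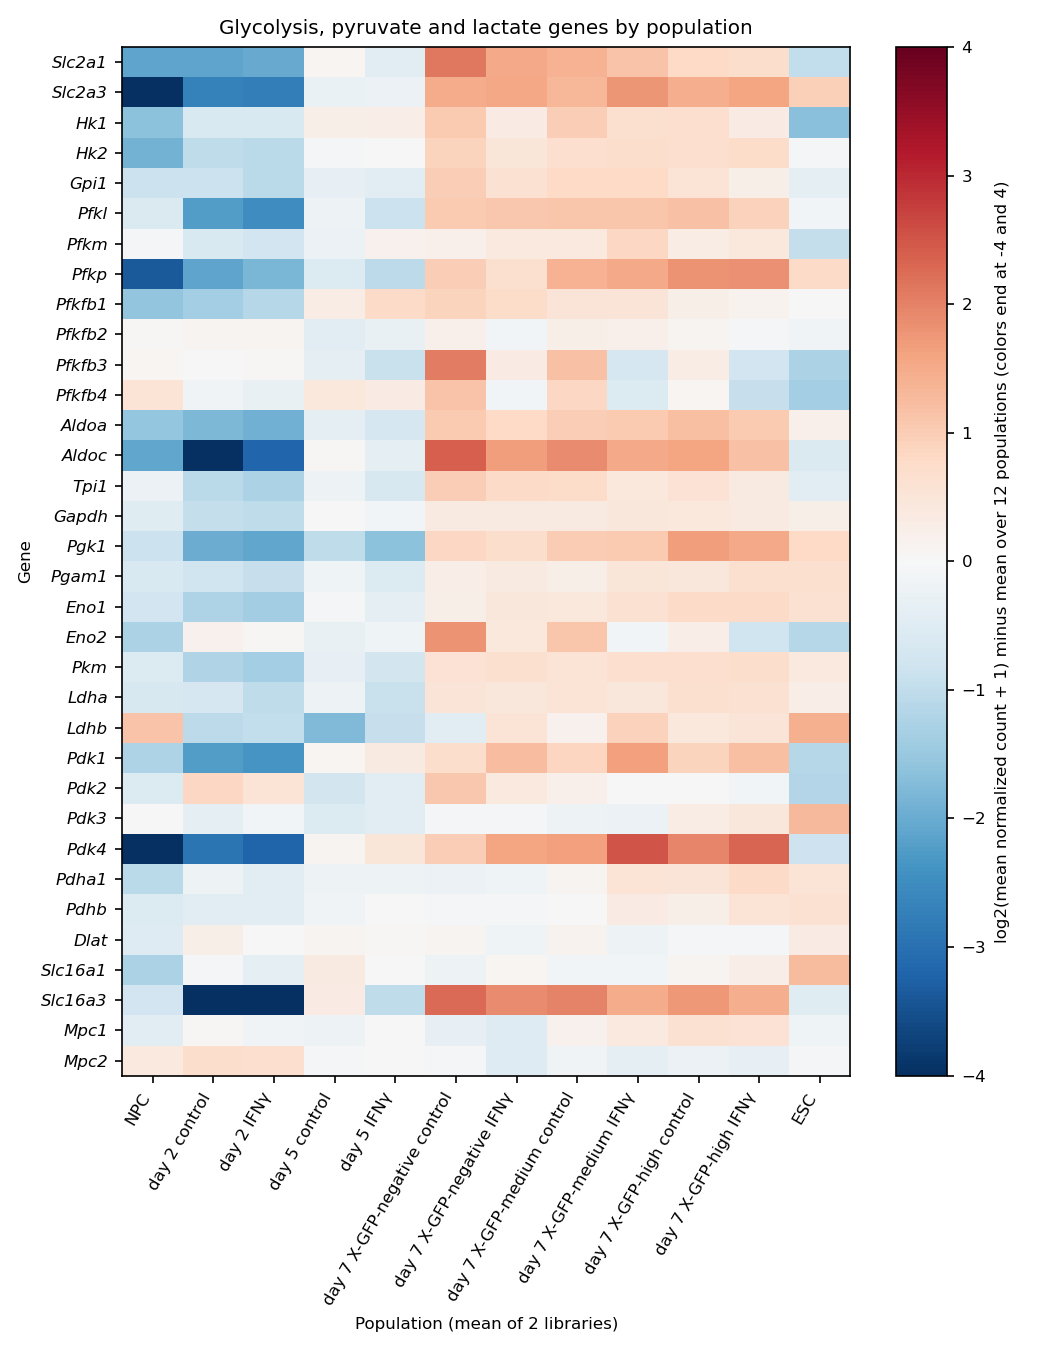
Mean normalized count of the 2 libraries for the 34 genes (vertical axis) in the 12 populations (horizontal axis), as log2(mean + 1) minus the average of the gene over the populations; red is above and blue below that average, and colors end at -4 and 4. Of the 34 genes, 24 are lowest in an NPC or day 2 population and 28 are highest in a day 7 population, while Ldhb, Pdk3 and Slc16a1 are highest in ESCs. The same counts were not taken over all genes.

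Per kilobase of exon length, the levels of Aldoa, Pkm, Ldha and Gapdh led the pathway before day 7 and in NPCs. In day 2 control cells the order was Ldha (5205 normalized counts per kilobase), Pkm (4622), Aldoa (3336) and Gapdh (3025), and in NPCs it was Pkm (7280), Ldha (5366), Gapdh (4225) and Aldoa (4026). The order among these neighbors depended on the transcript length used, and the NPC libraries were too far apart to rank them. At day 7, Aldoa stood first with 24135 per kilobase in X-GFP-negative and 26972 in X-GFP-high control cells. The lowest level per kilobase was that of Pdk4 in NPCs, at 1.42, and Pdk4 was also the lowest member in control cells of day 2, at 5.31. Mpc2 was last in X-GFP-negative control cells at 56.8 per kilobase of all its exons, but had 407 per kilobase of its principal transcript, which placed it at rank 28 of 34.

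The control populations were compared step by step to ask when the pathway changes during reprogramming. A gene was called changed at an adjusted p under 0.1 in limma on log2(normalized count + 1), with Benjamini-Hochberg adjustment over all genes tested. From NPCs to day 2, 12 members rose and 11 fell, a share of members close to that of all genes, of which 69.2% changed, 31.6% upward and 37.6% downward. The median log2 difference was 0.05 over the members and -0.08 over all genes. From day 2 to day 5, 24 members rose and 4 fell (Pfkfb2, Ldhb, Pdk2 and Mpc2), against 34.9% of all genes rising and 35.6% falling, 70.6% in all. The members' median was 0.74 and that of all genes 0.00. From day 5 to day 7 X-GFP-negative cells, 28 members rose and 1, Slc16a1, fell, whereas 34.2% of all genes rose and 29.5% fell, 63.7% in all, with medians of 0.85 and 0.04. These steps share libraries, since day 2 and day 5 cells each enter a pair of them. The sorted fraction also changed, from CFSE-negative cells at day 2 to SSEA1+ cells at day 5 and SSEA1+ X-GFP-negative cells at day 7. By the paper's methods, cells for day 7 were seeded less densely than those for day 5. Time, sorting and seeding density therefore cannot be told apart in these steps.

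The count from NPCs to day 2 rested on few libraries. Without day 2 control replicate 1 it was 13 of 34 members and without replicate 2 it was 14, in place of 23, and without NPC replicate 2 it was 30. The sum of 9 neural precursor markers went from 86079 and 88600 normalized counts in NPCs to 48004 and 51389 in day 2 control cells and 7755 and 7326 on day 5, without overlap. That of 10 fibroblast markers was 30784 and 44294 in NPCs and 64263 and 43298 at day 2, which overlapped, and 2701 and 1812 on day 5. That of 9 pluripotency markers was 1198 and 789, then 1948 and 1817, then 34178 and 39092. Y-linked feeder genes summed to at most 1.94 in NPCs, so the 10 fibroblast markers are not specific to feeders. The part of these marker shifts in the members' changes was not tested. Scaled to the same library total, the median of all genes shifted by -0.13 from day 2 to day 5 and the members' split became 23 higher and 8 lower.

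The transcripts of the genes for glucose uptake and phosphorylation showed the same late rise. Slc2a1, the glucose transporter GLUT1, had 3132 and 1700 normalized counts in NPCs, 2545 and 2251 at day 2, 13132 and 8784 on day 5, 47505 and 41843 in day 7 X-GFP-negative cells, 17990 and 18270 in X-GFP-high cells and 5433 and 5012 in ESCs. The day 7 X-GFP-negative libraries stood above all others, and NPC and day 2 libraries overlapped. Slc2a1 rose 4.49-fold from day 2 to day 5 (log2 difference 2.17 ± 0.17 SE, limma adjusted p = 4.43e-05) and 4.15-fold from there to X-GFP-negative cells (2.05 ± 0.16, adjusted p = 6.44e-05). Slc2a3, the high-affinity transporter GLUT3, had 2175 and 543 normalized counts in NPCs, 3702 and 3893 at day 2, 22519 and 18597 on day 5, 68023 and 69767 in X-GFP-negative cells and 48173 and 47785 in ESCs. It was still at a high level in ESCs, 44.1-fold above NPCs (5.46 ± 0.59, adjusted p = 0.000269), although the 2 NPC libraries themselves were far apart. The hexokinases, which trap glucose in the cell as glucose 6-phosphate, rose at every step up to X-GFP-negative cells. Hk2 had 2808 and 2112 in NPCs, 4332 and 4724 at day 2, 9350 and 8505 on day 5, then 16655 and 16989 among X-GFP-negative cells, and Hk1 went from 1216 and 1097 to 7408 and 7495 over the same steps.

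Among the enzymes of the upper pathway, the isozymes did not move alike. Pfkp, the platelet type of phosphofructokinase, the enzyme of the committed step, had 703 and 584 normalized counts in NPCs, 1609 and 1461 at day 2, 4663 and 4461 on day 5, 12566 and 13636 in X-GFP-negative cells and 21564 and 24774 in X-GFP-high cells. No libraries of successive populations overlapped. The liver type Pfkl had 7144 and 3350 in NPCs, fell to 1613 and 1686 at day 2 (2.97-fold, log2 difference -1.57 ± 0.32, adjusted p = 0.00706), and reached 7362 and 6010 on day 5, then 15681 and 16624 among X-GFP-negative cells. The muscle type Pfkm ranged only from 812 in an ESC library to 3044 in an IFNγ X-GFP-medium library.

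Aldoc, the brain type of aldolase, fell from 190 and 192 normalized counts in NPCs to 48.9 and 47.6 at day 2, then rose to 1004 and 678 on day 5, then 4536 and 3923 among X-GFP-negative cells. Its rise from day 2 to day 5 was 16.8-fold (log2 difference 4.07 ± 0.21, adjusted p = 9.17e-06). Aldoa, the isozyme of most tissues, rose 2.65-fold and then 2.73-fold over these steps. Gpi1, which interconverts glucose 6-phosphate and fructose 6-phosphate, rose 1.45-fold and 2.47-fold, and Tpi1, which interconverts the triose phosphates, 1.86-fold and 2.26-fold.

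The 4 Pfkfb genes encode the bifunctional enzymes that set the level of fructose 2,6-bisphosphate, an activator of phosphofructokinase. Pfkfb3 had 604 and 469 normalized counts in NPCs, 477 and 531 at day 2, 486 and 287 on day 5, then 2237 and 1913 among X-GFP-negative cells, so that its rise came only with the last of these steps (5.53-fold, log2 difference 2.47 ± 0.22, adjusted p = 8.90e-05). Pfkfb1, on the X chromosome, rose 3.13-fold from day 2 to day 5 and 1.5-fold to X-GFP-negative cells. Pfkfb4 rose 1.46-fold and 1.66-fold, and Pfkfb2 fell 1.43-fold before it rose 1.52-fold.

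In the lower pathway, Gapdh, Pgk1, Pgam1, Eno1 and Pkm were higher at day 5 than at day 2 and higher again in X-GFP-negative cells. Pgk1, which makes the first ATP of the pathway, had 4845 and 2402 normalized counts in NPCs, 1677 and 1673 at day 2, 3509 and 3105 on day 5, 11840 and 11764 in X-GFP-negative cells and 20008 and 22256 in X-GFP-high cells. It was the member of this group with the largest rise from day 5 to X-GFP-negative cells (3.57-fold, log2 difference 1.84 ± 0.07, adjusted p = 1.36e-05). Gapdh, often used as a reference gene, rose 1.99-fold from day 2 to day 5 and 1.25-fold afterwards, and Pkm, the pyruvate kinase of proliferating tissues, rose 1.87-fold at each step. Eno2, the neuronal enolase, had 219 and 205 counts in NPCs, 574 and 570 at day 2, 596 and 234 on day 5, then 1979 and 1558 among X-GFP-negative cells. The day 5 libraries of Eno2 were far apart and overlapped with day 2.

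**Figure D2:**
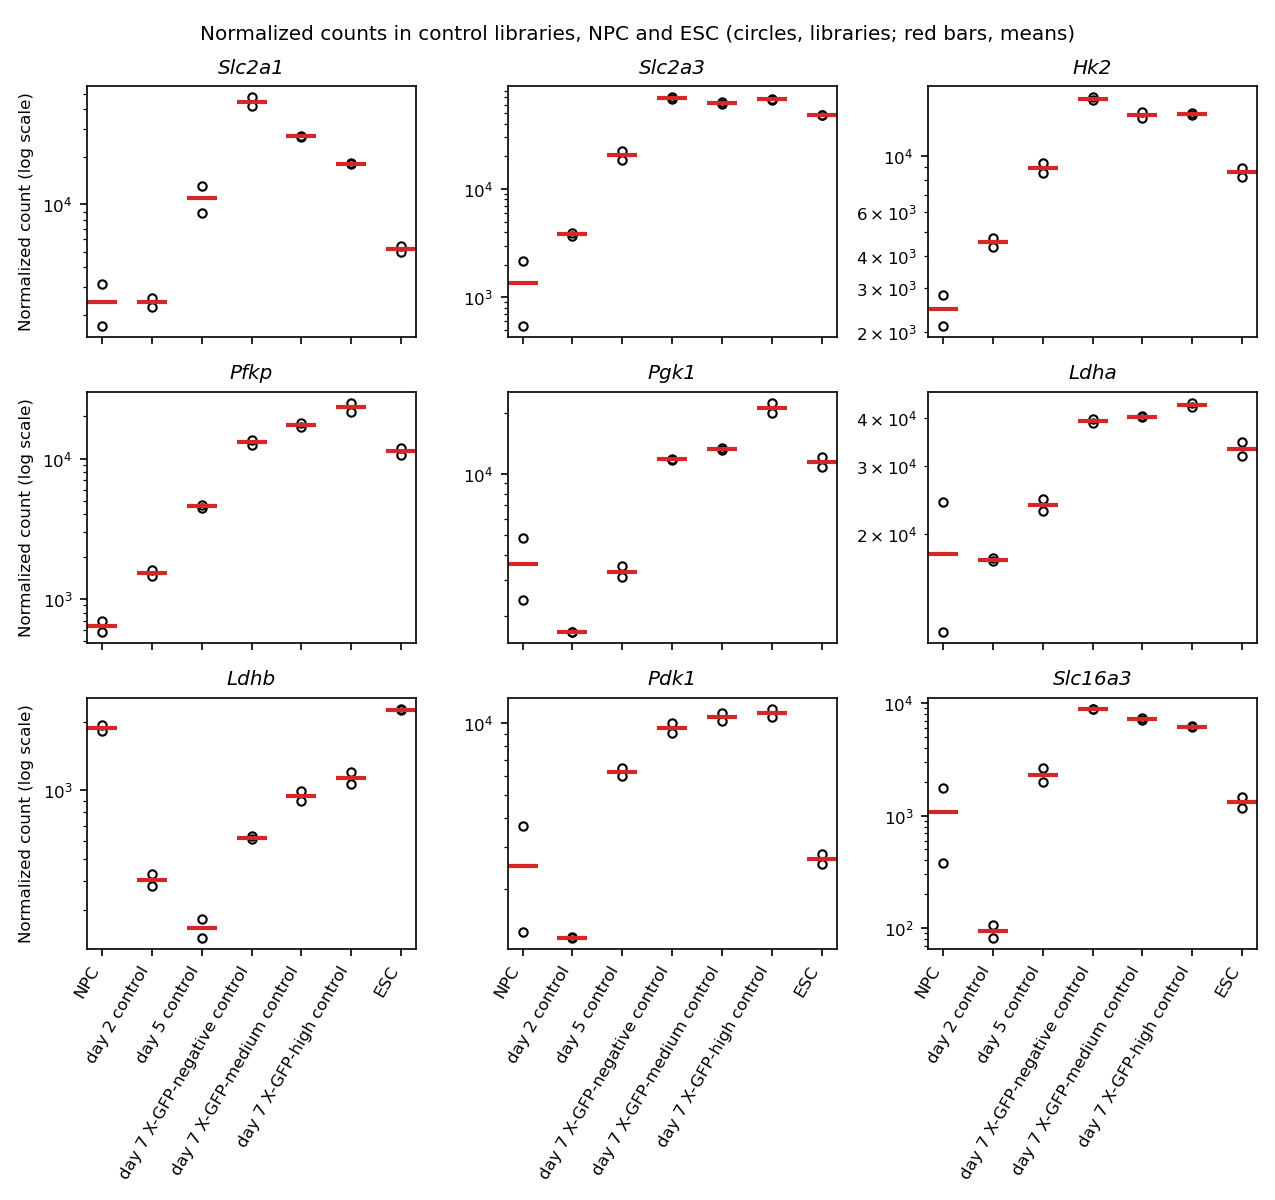
Normalized counts (log scale) of 9 members in NPCs, in control cells at days 2, 5 and 7, and in ESCs, with circles for the 2 libraries of each population and red bars for their mean. Slc2a1 peaks in day 7 X-GFP-negative cells and Pgk1 in X-GFP-high cells, and Ldhb falls until day 5 and is highest in ESCs.

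The lactate dehydrogenase genes followed different courses. Ldhb, whose subunit favors the conversion of lactate to pyruvate, had 1824 and 1926 normalized counts in NPCs, 432 and 380 at day 2, 226 and 272 on day 5, 614 and 628 in X-GFP-negative cells, 1064 and 1205 in X-GFP-high cells and 2240 and 2273 in ESCs. It fell 4.62-fold from NPCs to day 2 (log2 difference -2.21 ± 0.10, adjusted p = 5.04e-05) and a further 1.63-fold to day 5. Ldha, whose subunit favors lactate formation, had 24301 and 11219 in NPCs, 17402 and 17053 at day 2, 24616 and 22946 on day 5, then 38801 and 39774 among X-GFP-negative cells. The ratio of Ldha to Ldhb counts accordingly went from 13.3 and 5.83 in the NPC libraries to 109 and 84.4 on day 5, and was 15.4 and 14 in ESCs. Ldha was the higher of the pair per kilobase in all 12 populations, as were Hk2 over Hk1, Aldoa over Aldoc and Eno1 over Eno2, with either length.

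Slc16a3, the transporter MCT4 of lactate-exporting cells, had 1758 and 380 normalized counts in NPCs, 107 and 82.4 at day 2, 2628 and 1978 on day 5, then 8802 and 8884 among X-GFP-negative cells. It showed the largest rise of any member from day 2 to day 5 (24-fold, log2 difference 4.59 ± 0.18, adjusted p = 4.06e-06). Slc16a1, the more widely expressed transporter MCT1, had 2076 and 1769 in NPCs, 4368 and 4526 at day 2, 5746 and 6257 on day 5, 3851 and 4285 in X-GFP-negative cells and 11210 and 10957 in ESCs. It fell 1.48-fold at the step at which 28 other members rose (log2 difference -0.56 ± 0.08, adjusted p = 0.000596). The order of the pair thus turned: per kilobase of exon length, the ratio of Slc16a3 to Slc16a1 was at most 0.705 in every NPC, day 2, day 5 and ESC library, and 1.90 and 1.73 in X-GFP-negative control cells. It lay on the same side of 1 with the length of the principal transcript.

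The mitochondrial side changed less. Pdha1, Pdhb and Dlat encode subunits of the pyruvate dehydrogenase complex. Pdha1 had 3700 and 3383 normalized counts in NPCs, 6376 and 6434 at day 2, 6505 and 6530 on day 5, 6439 and 6293 in X-GFP-negative cells and 10802 and 10213 in X-GFP-high cells, and Dlat stayed between 2720 and 3383 in all control libraries of days 2 to 7. Mpc1 and Mpc2, the subunits of the mitochondrial pyruvate carrier, had 143 to 304 and 360 to 756 normalized counts in the control libraries of days 2 to 7, and neither differed past the threshold between day 5 and X-GFP-negative cells.

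By contrast, the kinases that inactivate the complex followed several courses. Pdk1 had 3682 and 1326 in NPCs, 1255 and 1256 at day 2, 5977 and 6448 on day 5, 9043 and 10031 in X-GFP-negative cells and 2813 and 2543 in ESCs, a rise of 4.94-fold from day 2 to day 5 (log2 difference 2.31 ± 0.07, adjusted p = 2.70e-06). Pdk4 started from 2.92 and 7.03 normalized counts in NPCs and had 22.4 and 14.9 at day 2, 135 and 181 on day 5, then 300 and 279 among X-GFP-negative cells. Pdk2 moved back and forth, with 211 and 227 at day 2, 84.2 and 62.2 on day 5, then 291 and 234 among X-GFP-negative cells.

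Within day 7 control cells, X-GFP-high cells, in which X mus has been reactivated furthest, were compared with X-GFP-negative cells. Of the members, 15 were higher in X-GFP-high cells and 13 lower, a share near that of all genes, of which 74% differed, 34.7% higher and 39.3% lower. The median was 0.08 for the members and -0.04 for all genes. The genes that were lower included Slc2a1 (2.46-fold, log2 difference -1.30 ± 0.06, adjusted p = 3.57e-08), Pfkfb3 (3.37-fold), Eno2 (2.87-fold), Pdk2 (2.11-fold), Pfkfb4 (2.10-fold) and Aldoc (1.74-fold). Those that were higher included Pdk4 (log2 difference 0.97), Mpc1 (1.93-fold), Ldhb (1.82-fold), Pgk1 (1.79-fold), Pfkp (1.77-fold) and Pdha1 (1.65-fold). Scaled to the same library total, the median of all genes shifted by 0.11 and the split became 18 higher and 11 lower.

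ESCs were the end point of the course, and 25 members were lower and 6 higher in ESCs than in day 7 X-GFP-high control cells, whereas 37.9% of all genes were lower and 37.8% higher, 75.8% in all. The members' median was -0.83 and that of all genes -0.00. The largest differences were those of Pdk4, with 611 and 528 normalized counts in X-GFP-high cells and 81.6 and 83.7 in ESCs (6.81-fold lower, log2 difference -2.77 ± 0.13, adjusted p = 5.56e-10), Hk1 (5.13-fold lower), Slc16a3 (4.68-fold lower), Aldoc (4.42-fold lower) and Pdk1 (4.10-fold lower). Higher in ESCs were Slc16a1 (2.21-fold), Pdk3 (2.00-fold), Ldhb (1.99-fold), Pdhb (1.29-fold), Dlat (1.29-fold) and Pgam1 (1.12-fold). For each of these members both ESC libraries lay on the same side of both X-GFP-high libraries. Doxycycline, ascorbic acid and feeders were present only for the day 7 cells, and their part in these differences was not tested.

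ESCs and NPCs, the 2 end points, were also compared directly. In ESCs 21 members were higher and 5 lower, fewer than the 85.6% of all genes that differed (42.2% higher and 43.4% lower), with a median of 0.91 for the members and -0.03 for all genes. Slc2a3 (44.1-fold), Pfkp (17.6-fold), Pdk4 (14.9-fold) and Slc16a1 (5.78-fold) were the highest above NPCs. Lower in ESCs were Pfkfb4 (3.71-fold), Pfkfb3 (2.55-fold), Pfkm (1.83-fold), Pdk2 (1.53-fold) and Mpc2 (1.41-fold). Slc2a1 (2.26-fold higher), Gpi1, Gapdh, Pkm and Ldha were not past the threshold when either ESC library was left out, nor was Pdk2 without any 1 of the 4 libraries. Scaled to the same library total the median of all genes shifted by -0.13.

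IFNγ-treated cells were then compared with control cells to ask whether the cytokine changes these genes while it is present. At day 2, 1 member, Pfkp, rose and 4, Gpi1, Pfkl, Ldha and Slc16a1, fell, beside 8.49% of all genes (5.03% higher and 3.45% lower). In limma 12 members had an unadjusted p under 0.05. The share of all genes was not taken at that threshold, so the 12 cannot be set against the 8.49%. Ldha had 17402 and 17053 normalized counts in control cells and 13662 and 13702 in IFNγ cells, without overlap. It fell 1.26-fold (log2 difference -0.33 ± 0.05, adjusted p = 0.0152) and kept this call without any 1 of the 4 libraries. Slc16a1 had 4368 and 4526 in control cells and 3673 and 3642 in IFNγ cells (1.22-fold, -0.28 ± 0.05, adjusted p = 0.0320). The differences of Pfkp (1.22-fold higher), Gpi1 (1.16-fold lower) and Pfkl (1.2-fold lower) were as small, with limma adjusted p of 0.0766, 0.0732 and 0.0931. With the replicate number added to the fit as a block, 3 members were higher and 11 lower with IFNγ. The labels do not tie these numbers to a shared culture, and the share of all genes was not taken for that fit. Leaving out any of the 4 libraries left 1 to 3 members past the threshold: 3 without control replicate 1, 1 without control replicate 2, 2 without IFNγ replicate 1 and 1 without IFNγ replicate 2. The 10 fibroblast markers summed to 64263 and 43298 in control cells and 31636 and 26122 in IFNγ cells, with all 10 above 3 counts. Their sum was 30784 and 44294 in NPCs, which were grown without feeders, so it does not measure feeders alone. Y-linked feeder genes summed to 253 and 218 in control cells and 125 and 223 in IFNγ cells, which overlapped. Neural precursor markers summed to 48004 and 51389 in control cells and 57086 and 57403 in IFNγ cells. The part of these lists in the differences of the members was not tested.

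At day 5, 2 members fell with IFNγ and 0 rose, beside 2.18% of all genes (1.65% higher and 0.535% lower) in limma. An unadjusted p under 0.05 was found for 14 members, again without a share of all genes at that threshold. Slc16a3 had 2628 and 1978 normalized counts in control cells and 1161 and 644 in IFNγ cells, a fall of 2.64-fold (log2 difference -1.40 ± 0.27, adjusted p = 0.0801). Pfkp had 4663 and 4461 in control cells and 3354 and 3107 in IFNγ cells (1.41-fold, -0.50 ± 0.08, adjusted p = 0.0418). Neither pair of groups overlapped. Values of Ldha were 24616 and 22946 against 17422 and 12523 (adjusted p = 0.101), and those of Pgk1 3509 and 3105 against 2475 and 1798 (adjusted p = 0.122), also without overlap but not past the threshold.

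The 2 IFNγ libraries of day 5 differed from each other in these genes, and the count of calls depended on them. It was 16 (4 higher and 12 lower) without IFNγ replicate 1, 2 without IFNγ replicate 2, 0 without control replicate 1 and 1 without control replicate 2. DESeq2 on the reads recovered from the values called 11 members (2 higher and 9 lower) and edgeR 2. The share of all genes was not taken in these alternative runs, nor in those of the interaction test that follows. Their counts therefore cannot be set against the shares of the main fits. In the test of the difference between the IFNγ effects at day 5 and day 2, only Pfkp was past the threshold, beside 0.676% of all genes (0.202% higher and 0.474% lower), since it was higher with IFNγ at day 2 and lower at day 5 (difference -0.79 ± 0.10 on the log2 scale, limma adjusted p = 0.0110). Without day 5 IFNγ replicate 1, 6 members passed this test.

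At day 7, 2 days after IFNγ had been withdrawn, far more genes differed between the arms in the fits without the replicate block. In X-GFP-negative cells 5 members were higher and 17 lower with IFNγ, beside 61.9% of all genes (31.1% higher and 30.8% lower), with a median of -0.16 for the members and 0.02 for all genes. In X-GFP-medium cells 10 were higher and 10 lower, beside 62.9% (33.3% higher and 29.6% lower), with medians of 0.01 and 0.04. In X-GFP-high cells 5 were higher and 9 lower, beside 38.5% (18.1% higher and 20.4% lower), with medians of -0.05 and 0.03. The excess of lower over higher members in X-GFP-negative cells depended on the scaling: with every library scaled to the same total, the median of all genes shifted by 0.16 and the split was 14 higher and 13 lower. The count in X-GFP-high cells was 7 without control replicate 1 and 9 without control replicate 2.

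Of the members, 7 were lower with IFNγ in all 3 day 7 populations, which was true of 16.9% of 14712 genes, and 2 were higher in all 3, true of 12.3%. The 7 were Hk1, Pfkfb3, Pfkfb4, Aldoc, Tpi1, Eno2 and Slc16a3, and the 2 were Pdk1 and Pdk4. A further 6, Pfkfb1, Gapdh, Pkm, Ldha, Pdk3 and Mpc1, passed the threshold in none of the 3, which was true of 20.4% of genes. Pfkp was lower in X-GFP-negative cells (log2 difference -0.33) and slightly higher in X-GFP-medium cells (0.13). The latter call was lost in 7 of 11 alternative runs, among them DESeq2, edgeR and values rescaled to the same total. The calls of Tpi1 in X-GFP-negative and X-GFP-high cells were each lost in 3 of 11 such runs. Both were lost in 1 fit of all 24 libraries, and that in X-GFP-negative cells also with rescaled values. The 3 comparisons used different libraries, but the labels do not say whether the populations were sorted from the same cultures.

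To show the sequence at the start of these genes, the upstream sequences of the 3 among the 9 whose RefSeq start coincided with the start of the gene in GENCODE are given, 250 bases each on GRCm38.p6, read 5′ to 3′ on the strand of the gene and taken from RefSeq. Capitals mark the core of the hypoxia response element, ACGTG or GCGTG, searched on both strands. The region of Pdk1 is chr2:71872974-71873223 (plus strand), that of Hk1 chr10:62379909-62380158 (minus strand) and that of Eno2 chr6:124769674-124769923 (minus strand).
Pdk1: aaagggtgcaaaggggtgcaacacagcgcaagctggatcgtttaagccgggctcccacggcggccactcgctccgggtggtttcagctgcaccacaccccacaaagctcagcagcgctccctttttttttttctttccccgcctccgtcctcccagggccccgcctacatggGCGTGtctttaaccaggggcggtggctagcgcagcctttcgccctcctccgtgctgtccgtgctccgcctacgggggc
Hk1: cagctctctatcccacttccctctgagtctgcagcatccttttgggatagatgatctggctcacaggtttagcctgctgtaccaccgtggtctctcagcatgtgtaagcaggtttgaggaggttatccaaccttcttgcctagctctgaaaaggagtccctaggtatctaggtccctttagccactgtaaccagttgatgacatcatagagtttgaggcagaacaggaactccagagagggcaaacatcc
Eno2: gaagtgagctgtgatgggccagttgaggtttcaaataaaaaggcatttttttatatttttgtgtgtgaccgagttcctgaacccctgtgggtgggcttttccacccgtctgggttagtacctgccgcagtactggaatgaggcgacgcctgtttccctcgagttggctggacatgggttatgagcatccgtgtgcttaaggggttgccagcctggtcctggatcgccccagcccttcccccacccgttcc
The window of Pdk1, a gene that was higher with IFNγ, held 1 match, which begins 78 bases before the start, and the windows of Hk1 and Eno2, which were lower, held 0. These windows do not stand for the 9 genes: the core was present in 4 of the 7 lower with IFNγ in all 3 populations (Pfkfb3, Pfkfb4, Aldoc and Slc16a3) and in both that were higher. In 33 of the 34 members a promoter was found in the RefSeq table, and 26 of these 33 windows (78.8%) held the core at least once, compared with 38.6% of 32851 promoters of the same length. CACGTG, the E-box bound by MYC, which contains the core on both strands, occurred in 4 of the 33 windows (12.1%), namely Pfkm, Ldha, Pdk2 and Slc16a1, and in 6.02% of all promoters. TTCNNNGAA, the element bound by STAT proteins, occurred in 0 of the 33 and in 7.02% of all. Base composition differs between promoters and was not matched in these shares, and a match of letters says nothing of binding.

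Pfkfb3, Pfkfb4 and Eno2 had the largest falls with IFNγ of the members in each of the 3 populations. Pfkfb3 had 2237 and 1913 normalized counts in X-GFP-negative control cells and 595 and 670 with IFNγ, 1208 and 1084 against 308 and 317 in X-GFP-medium cells, and 648 and 581 against 248 and 342 in X-GFP-high cells. The arms did not overlap in any population. The fall was 3.27-fold (log2 difference -1.71 ± 0.10, adjusted p = 2.79e-06), 3.66-fold (-1.87 ± 0.09, adjusted p = 5.81e-07) and 2.10-fold (-1.07 ± 0.15, adjusted p = 0.000247), respectively. In Pfkfb4 the values were 696 and 722 against 318 and 278, 601 and 535 against 199 and 239, and 363 and 314 against 176 and 159. These falls were 2.38-fold, 2.59-fold and 2.01-fold, with adjusted p of 1.84e-05, 1.25e-05 and 0.000303, and the IFNγ libraries lay between the control libraries of the same population and ESCs, at 130 and 119.

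Eno2 fell to a similar extent, from 1979 and 1558 normalized counts to 755 and 600 in X-GFP-negative cells (2.61-fold, log2 difference -1.38 ± 0.13, adjusted p = 3.93e-05), from 1121 and 1096 to 514 and 440 in X-GFP-medium cells (2.33-fold) and from 619 and 604 to 329 and 259 in X-GFP-high cells (2.09-fold). Smaller falls were seen in Hk1 (1.64-fold, 1.26-fold and 1.28-fold), Aldoc (1.64-fold, 1.29-fold and 1.33-fold), Slc16a3 (1.29-fold, 1.43-fold and 1.24-fold) and Tpi1 (1.16-fold, 1.25-fold and 1.18-fold), given in order of rising X-GFP. Slc2a1 fell in 2 of the populations. It had 47505 and 41843 against 30385 and 29745 in X-GFP-negative cells (1.48-fold, log2 difference -0.57 ± 0.07, adjusted p = 0.000143) and 27132 and 26860 against 21292 and 24134 in X-GFP-medium cells (1.19-fold), and 17990 and 18270 against 16116 and 17417 in X-GFP-high cells, where it did not pass (adjusted p = 0.255).

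The 5 members that rose with IFNγ in X-GFP-negative cells were Pdk1, Pdk4, Ldhb, Slc16a1 and Eno1. Pdk1 had 9043 and 10031 normalized counts in X-GFP-negative control cells and 13602 and 13959 with IFNγ (1.45-fold, log2 difference 0.53 ± 0.06, adjusted p = 0.000141), 10173 and 11002 against 18462 and 18553 in X-GFP-medium cells (1.75-fold, 0.81 ± 0.06, adjusted p = 4.00e-06), and 10536 and 11438 against 13346 and 13535 in X-GFP-high cells (1.22-fold, 0.29 ± 0.07, adjusted p = 0.00849). Pdk4 rose 1.49-fold, 1.84-fold and 1.29-fold in the same order, with 481 and 430 against 899 and 783 in X-GFP-medium cells. Both kinases thus moved away from the level of ESCs, in which Pdk1 had 2813 and 2543 and Pdk4 81.6 and 83.7.

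Ldhb moved toward the level of ESCs. It had 614 and 628 normalized counts in X-GFP-negative control cells and 1370 and 1120 with IFNγ (1.99-fold, log2 difference 0.99 ± 0.10, adjusted p = 6.11e-05), 901 and 995 against 1716 and 1491 in X-GFP-medium cells (1.69-fold, 0.76 ± 0.09, adjusted p = 6.37e-05), and 1064 and 1205 against 1328 and 1077 in X-GFP-high cells, where the arms overlapped. Ldha was 38801 and 39774 against 35035 and 40984 in X-GFP-negative cells, so that the ratio of Ldha to Ldhb counts went from 63.2 and 63.4 to 25.6 and 36.6. Pdha1 and Pdhb were higher with IFNγ in X-GFP-medium (1.33-fold and 1.27-fold) and X-GFP-high cells (1.2-fold and 1.24-fold), and Dlat was lower in X-GFP-negative (1.23-fold) and X-GFP-medium cells (1.29-fold).

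**Figure D3:**
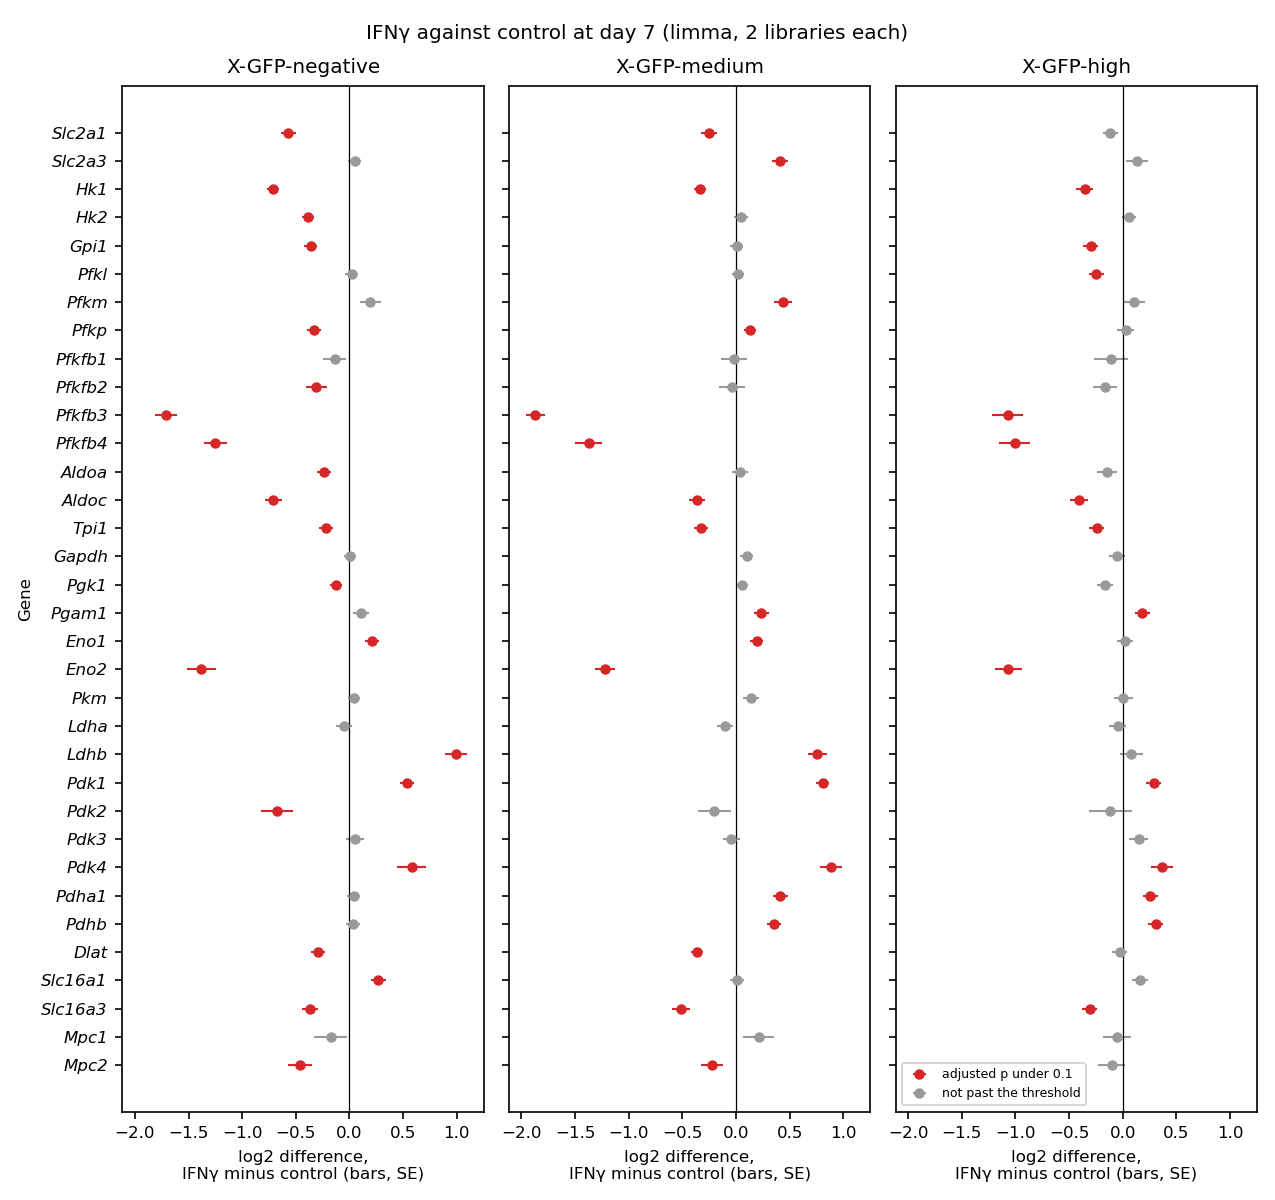
Log2 difference of IFNγ minus control (horizontal axis, bars are SE) for the 34 genes in the 3 day 7 populations, 2 libraries per arm; red points are past the adjusted p of 0.1 and gray points are not. Pfkfb3, Pfkfb4 and Eno2 lie farthest to the left in all 3 panels, and Ldhb lies to the right, past the threshold, in the first and the second panel only.

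Marker genes differed between the arms as well. The sum of the 10 fibroblast markers was 5103 and 4484 normalized counts in X-GFP-negative control cells against 1074 and 1076 with IFNγ, 5655 and 5081 against 755 and 806 in X-GFP-medium cells and 2648 and 2151 against 656 and 735 in X-GFP-high cells, with at most 2 of the 10 at or under 3 counts. The sum of 9 pluripotency markers was 30265 and 34279 against 52358 and 48035, 59915 and 61648 against 104358 and 98427, and 109475 and 114209 against 136822 and 129520, in the same order. Neural precursor markers summed to 6334 and 6091 in X-GFP-negative control cells against 10170 and 10662 with IFNγ, 3603 and 3896 against 2670 and 3135 in X-GFP-medium cells and 2587 and 2600 against 2299 and 2536 in X-GFP-high cells. The part of these lists in the members' differences was not tested. Y-linked feeder genes summed to at most 12.5 normalized counts in these libraries.

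Whether the difference between the arms varied between X-GFP-high and X-GFP-negative cells was tested as an interaction. In it 9 members passed (7 positive and 2 negative), beside 22.8% of all genes (9.43% and 13.3%). The cells were sorted by X-GFP after IFNγ had ended, and the paper reports that early IFNγ raised the share of X-GFP-positive cells. Each gate may therefore hold different cells in the arms. A changed response of the cells and a changed make-up of the gates cannot be told apart in this test. Ldhb had the largest difference, its rise in X-GFP-negative cells having no counterpart past the threshold in X-GFP-high cells (-0.92 ± 0.17 on the log2 scale, limma adjusted p = 0.00519). The positive differences were those of Pfkfb3 (0.64 ± 0.20, adjusted p = 0.0531), Slc2a1 (0.45 ± 0.10, adjusted p = 0.0128) and Hk2 (0.45 ± 0.08, adjusted p = 0.00429), and of Pfkp, Hk1, Pdhb and Dlat, between 0.27 and 0.36. Hk2 had 16655 and 16989 normalized counts in X-GFP-negative control cells and 12567 and 13193 with IFNγ, but 14452 and 14724 against 15196 and 15218 in X-GFP-high cells. Pfkl had the other negative difference (-0.27 ± 0.09, adjusted p = 0.0551). The count was 5 when X-GFP-negative control replicate 1, X-GFP-negative IFNγ replicate 1 or X-GFP-high control replicate 2 was left out, and 6 without X-GFP-negative IFNγ replicate 2 or X-GFP-high control replicate 1. Only Hk2 and Ldhb passed in every alternative run.

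Other genes of glucose metabolism, and genes of the hypoxia response that lie outside glycolysis, were counted for the same comparisons. Of the 20 genes of the hypoxia list, 19 were tested in comparisons with NPCs or day 2 cells and with IFNγ at days 2 and 5. Of these, 7 were higher and 8 lower in ESCs than in NPCs, 6 and 9 from NPCs to day 2, and 10 and 5 from day 2 to day 5. Over all genes 85.6%, 69.2% and 70.6% passed in these comparisons, respectively. With IFNγ, 3 were higher and 1 lower at day 2, among them Epas1 (2.47-fold higher) and Vegfa (1.56-fold higher), and 0 were higher and 1 lower at day 5. The shares of all genes past the threshold were 8.49% at day 2 and 2.18% at day 5. Of all 20, 17 had risen and 1 had fallen in X-GFP-negative control cells since day 5 (median 1.69), 0 were higher and 18 lower in X-GFP-high control cells relative to X-GFP-negative ones (median -0.66), and 3 were higher and 15 lower in ESCs than in X-GFP-high cells (median -1.71). Over all genes, 34.2% were higher and 29.5% lower in the first of these comparisons. The shares were 34.7% and 39.3% in the second, and 37.8% and 37.9% in the third. With IFNγ at day 7, 1 was higher and 15 were lower in X-GFP-negative cells (median -0.76), 1 and 14 in X-GFP-medium cells (-0.53), and 2 and 13 in X-GFP-high cells (-0.45). Over all genes 61.9%, 62.9% and 38.5% passed in these populations, and 30.8%, 29.6% and 20.4% were lower. Adm, which encodes adrenomedullin, had 51.3 and 17.8 normalized counts in day 5 control cells, 1075 and 893 in X-GFP-negative control cells, and 141 and 159 in X-GFP-negative IFNγ cells. The fall with IFNγ was 6.51-fold in limma (log2 difference -2.70 ± 0.13, adjusted p = 1.04e-06). Ndrg1 fell 3.46-fold in the same comparison, from 17475 and 14046 to 4398 and 4656. The medians of all genes in the 6 comparisons with all 20 genes lay between -0.04 and 0.04.

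Of the 36 other genes of the pathway, 26 were tested in X-GFP-negative cells, where 12 were higher and 7 lower with IFNγ (median 0.14). Pcx, the pyruvate carboxylase, had 320 and 354 normalized counts in control cells and 1035 and 873 with IFNγ (2.82-fold, log2 difference 1.49 ± 0.11, adjusted p = 9.32e-06), and in X-GFP-medium cells 634 and 630 against 1968 and 1655 (2.85-fold). Upward and downward calls numbered 13 and 7 of 27 in X-GFP-medium cells, and 8 and 6 of 28 in X-GFP-high cells. Genes of the pentose phosphate pathway, which branches off at glucose 6-phosphate, were 2 higher and 2 lower of 8 tested in X-GFP-negative cells, 4 and 2 of 9 in X-GFP-medium cells and 3 and 1 of 9 in X-GFP-high cells. Over all genes 61.9%, 62.9% and 38.5% passed in these 3 comparisons. In ESCs 7 of these 9 were higher and 0 lower than in X-GFP-high control cells (median 0.33), beside 75.8% of all genes (37.8% higher and 37.9% lower).

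The 4 members on the X chromosome, Pgk1 (chrX:106187100-106203699), Pdha1 (chrX:160122209-160138413), Pdk3 (chrX:93764607-93832201) and Pfkfb1 (chrX:150588229-150643878), were all in the authors' allelic table of 316 genes, which gives, per population, the X mus share of the reads that could be assigned to an allele. The table has 1 value per population, so these values have no replicate error, and no depth is given. In NPCs, in which X mus is inactive, the proportion was 0 for Pgk1, Pdk3 and Pfkfb1 and 0.000402 for Pdha1. In X-GFP-negative control cells at day 7 it was 0.0580 for Pgk1, 0.0187 for Pdha1 and 0 for Pdk3 and Pfkfb1. The 4 genes separated in X-GFP-medium control cells, where Pgk1 had 0.225 and Pdha1 0.199, above the median of 0.110 over the 316 genes, while Pdk3 had 0.0351 and Pfkfb1 0.00446, below it.

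In X-GFP-medium cells with IFNγ the values were 0.345 for Pgk1, 0.394 for Pdha1, 0.0576 for Pdk3 and 0.0547 for Pfkfb1, each higher than in control cells, and the median was 0.236. In X-GFP-high cells they were 0.473 and 0.509 for Pgk1 in control and IFNγ cells, 0.470 and 0.583 for Pdha1, 0.191 and 0.300 for Pdk3 and 0.164 and 0.198 for Pfkfb1, beside medians of 0.336 and 0.396. In ESCs the proportions were 0.552, 0.645, 0.399 and 0.535. Pdha1 was above the median of its population in 11 of 12 populations and Pgk1 in 10, whereas Pdk3 was above it in 2 and Pfkfb1 in 1. Total counts of Pgk1 and Pdha1 in X-GFP-high control cells were also above those of X-GFP-negative ones, 1.79-fold and 1.65-fold. Pdk3 was 1.30-fold higher there, and Pfkfb1 was 1.58-fold lower.

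**Figure D4:**
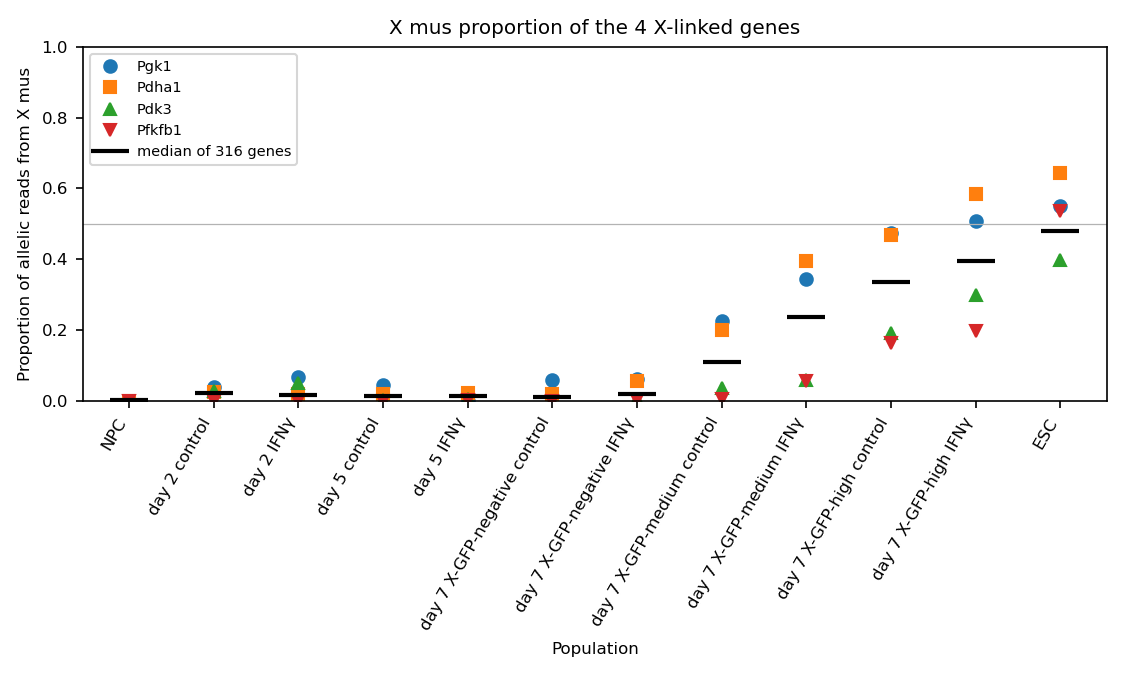
Proportion of allelic reads from X mus (vertical axis) for Pgk1, Pdha1, Pdk3 and Pfkfb1 in the 12 populations, 1 deposited value each, with the median over the 316 genes of the table. Pgk1 and Pdha1 lie above the median and Pdk3 and Pfkfb1 below it in the 4 X-GFP-medium or X-GFP-high populations, and a gray line marks a proportion of 0.5.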

How the data were processed

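RNA-seq data of 24 libraries were used, 2 for each of 12 populations, grouped by the labels. The signal values deposited by the authors were normalized counts: reads were aligned with STAR and WASP to mm10 with strain variants masked, counted per gene with HTSeq 0.6.1 and divided by DESeq2 size factors. In every library 100% of values were whole multiples of 1 step (tolerance 0.01 reads), from which reads were recovered. The fractions deposited by the authors are X mus proportions, 1 per gene and population. Whether replicates were pooled is not given in the sources used here.

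Each comparison was fitted on its 4 libraries, or 8 for interactions, with limma 3.58.1 in R 4.3.3 (lmFit, eBayes with trend) on log2(normalized count + 1). Genes with a mean above 10 were tested two-sided with Benjamini-Hochberg adjustment over all genes and a threshold of 0.1. Fold changes are on this scale and understate changes of low genes. DESeq2 1.42.0 and edgeR 4.0.16 on recovered reads, a pseudocount of 0.1, no filter, rescaled totals, a replicate block, 1 fit of all libraries and leaving out each library were alternatives. On simulated day 2 data, limma recovered 85.9% of genes changed by 1 on the log2 scale, and 13.9% of its calls were false, above the threshold of 0.1. For the day 7 interaction the shares were 71.7% and 8.7%. Changes smaller than 1, such as those of the members at day 2, were not simulated. All 34 members are named, and of the lists of other genes at most the 2 with the largest change per comparison. Members were matched by symbol alone, but the set of genes, like the lists, was proposed with earlier results of these data known. Figures used matplotlib 3.10.9.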

Additional observations from a re-analysis of the deposited data

Results flagged for a closer look

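The difference between IFNγ and control cells varied between populations for 10 gene and comparison pairs, by the interaction test in limma at an adjusted p under 0.1. Between day 5 and day 2 this was Pfkp, with a difference of -0.79 on the log2 scale, being higher with IFNγ at day 2 and lower at day 5. Between day 7 X-GFP-high and X-GFP-negative cells the differences were 0.45 for Hk2, -0.92 for Ldhb, 0.28 for Pdhb, 0.36 for Hk1, -0.27 for Pfkl, 0.36 for Pfkp, 0.27 for Dlat, 0.45 for Slc2a1 and 0.64 for Pfkfb3. The cause of these differences was not tested, and the day 7 gates, sorted after IFNγ had ended, may hold different cells in the arms.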

How the results depend on the processing

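Of 238 calls of members, 238 held with a pseudocount of 0.1, 237 with the replicate block, 236 with edgeR, 227 without a filter, 224 with DESeq2, 224 with values rescaled to the same total and 201 with all 24 libraries in 1 fit. Only 1 turned: Pgk1 with IFNγ in X-GFP-negative cells was 0.0321 when rescaled (limma adjusted p = 0.634). Leaving out 1 library at a time kept 871 of 991 calls, and counts of members ran from 20 to 29 for ESC against NPC, 13 to 30 for day 2 control against NPC, 27 to 31 for day 5 against day 2, 29 to 30 for X-GFP-negative against day 5, 23 to 28 for X-GFP-high against X-GFP-negative and 30 to 32 for ESC against X-GFP-high. For IFNγ they ran from 1 to 3 at day 2, 0 to 16 at day 5, 17 to 22, 15 to 23 and 7 to 19 in the day 7 populations in order of rising X-GFP, and 1 to 6 and 5 to 11 for the differences between days 5 and 2 and within day 7. Without a filter the counts were 2 at day 2, 1 at day 5 and 5 for the day 7 difference. In 1 fit of all libraries they were 10 at day 5, 8 in X-GFP-high cells, 3 for the difference between days and 5 for that within day 7. With DESeq2 they were 11 at day 5 and 3 for the difference between days. The labels do not tie a replicate number to a shared culture or day, so no pairing was assumed. Deviations of same-numbered libraries correlated by -0.118 to 0.313 over the comparisons, and by 0.313 at day 2, 0.255 at day 5 and 0.117 in X-GFP-negative cells for IFNγ. With the replicate block the IFNγ counts were 14 at day 2 (3 higher and 11 lower), 18 at day 5 (4 higher and 14 lower), 2 for the difference between days and 16 for that within day 7. A crossed block for day 2 against NPC, chosen after seeing the data, called 12 higher and 13 lower, and the block as numbered 11 and 12. The number of isozyme ratios per kilobase over 1 was 75, also when rescaled, and 76 with the length of the principal transcript, also chosen afterwards. With 2 libraries a group, differences near those of Gpi1 or Pfkl at day 2 are at the limit of what was detected.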
